A study of Caenorhabditis elegans with 16 samples.

Results

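The sites described here are the cytosines (C) of 4 intronless reporter sequences at which antisense 22G-RNAs were rarely seen to start. They were selected on their raw read counts: every C at base 22 or later was taken whose reads, summed over all libraries of its reporter, came to at most 2. This gave 509 rarely used C of 1734, and the 1225 other C of the same sequences serve as the comparison. The read counts chose the sites, so the counts are given as a description and no test is made on them. Neighbouring bases, base content, spacing and position were not used in the choice.

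22G-RNAs are antisense small RNAs of Caenorhabditis elegans copied from messenger RNA by RNA-dependent RNA polymerases and bound by worm-specific Argonaute proteins. The polymerase begins opposite a C of the template, which gives the small RNA its first G, and each 22G-RNA is made as a separate product. A C of the messenger RNA is therefore a possible start, and the base just before it (on its 5′ side) pairs with the second base of the small RNA.

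Small RNA was sequenced from whole worms of synchronised populations, in 16 libraries, 1 for each genotype, without replicates. The cdk-1::gfp reporter (a cyclin-dependent kinase fused to green fluorescent protein, gfp) was inserted on chromosome II with the Cbr-unc-119(+) marker. It was intronless in rde-3(ne3370) and, as neSi73, in prg-1(tm872), intronless alone (neSi71), or had its introns (neSi12). unc-119(ed9) was listed in each of these genotypes except the rde-3 one. The oma-1::3xflag reporter (an oocyte maturation protein with an epitope tag) was an edit of the oma-1 gene. It was intronless (ne4869) in rde-3(ne4871), intronless as ne4845 in prg-1(ne4844), intronless alone (ne4869), or had its introns restored (ne4868). The gfp::his-61 reporter (gfp on a histone H2A gene) was an edit of his-61. It was intronless in rde-3(ne4848), prg-1(ne4766), nrde-4(ne4679) and wago-9(ne4872), intronless alone (ne4847), or had introns (ne4846). The prg-1 and nrde-4 strains carried intronless alleles of their own, ne4851 and ne4874, while the rde-3 and wago-9 strains carried ne4847. Intronless oma-1::gfp was inserted on chromosome II, with the worm's own oma-1 deleted (neSi75, ne4864) or present (neSi74), in an unc-119(ed9) background with the Cbr-unc-119(+) marker.

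The libraries held 96 to 17406 antisense reads of 22 nt, 70009 in all. Reads on the cdk-1 and oma-1 parts of an inserted reporter can also come from the worm's own gene. Where a stretch or a single C has few reads, fewer small RNAs made there and fewer caught by the cloning cannot be told apart. This holds also for C grouped by a neighbouring base, and rarely used here means few reads only. The labels do not say how reads that match several places in the genome were treated. Such reads could be missing from his-61, which resembles other histone genes, or from the cdk-1 and oma-1 parts, and this was not tested. The worm's own genes are annotated in build WBcel235 at bases 9747472 to 9748852 of chromosome III for cdk-1, and on chromosome IV at 8888976 to 8890999 for oma-1 and 7485834 to 7486217 for his-61. Positions below are bases of the intronless reference sequences, numbered from 1. Bases upstream of the start codon form the 5′ flank, and bases downstream of the stop codon the 3′ flank.

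Most rarely used C had few reads beside them: the other C within 5 bases held a median of 7 reads at rarely used C and 30 at other C. Some stood beside C with many reads. On each reporter the 3 rarely used C with the most reads on other C within 5 bases were picked out. Of these 12, 11 followed a G or C, as did 339 of all 509 rarely used C (66.6%) and 382 of 1225 other C (31.2%). The 12 are not all separate: oma-1 base 366 is among them on both oma-1 reporters, and bases 618 and 619 of oma-1::3xflag are adjacent. The sequences below show 5 of the 12, each followed by the highest C beside it, including the exception. They come from the deposited reference sequences and are written as messenger RNA sense strand, 5′ to 3′. Each shows the 22 bases that the small RNA copies and 1 further base. Capitals mark the C opposite the first base of the small RNA and the base just before it.
cdk-1::gfp, gfp base 1502, 1 read: cacacaatgtatacatcatgGCa
cdk-1::gfp, gfp base 1497, 188 reads: taactcacacaatgtatacaTCa
cdk-1::gfp, gfp base 1171, 1 read: gcaacatacggaaaacttacCCt
cdk-1::gfp, gfp base 1169, 124 reads: atgcaacatacggaaaacttACc
oma-1::3xflag, oma-1 base 366, 1 read: cgcgcgattcagagttttccCCa
oma-1::3xflag, oma-1 base 371, 1003 reads: gattcagagttttccccagaACa
oma-1::3xflag, oma-1 base 618, 0 reads: tatacgactacaggactctgCCc
oma-1::3xflag, oma-1 base 623, 433 reads: gactacaggactctgcccatACg
oma-1::gfp, gfp base 1937, 2 reads: tggccctgtccttttaccagACa
oma-1::gfp, gfp base 1941, 494 reads: cctgtccttttaccagacaaCCa

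In the first 4 of these pairs the rarely used C followed a G or a C, and its highly read neighbour followed an A or a T. The pair on oma-1::gfp ran the other way, with the rarely used C after an A. At oma-1 base 366 the 4 oma-1::3xflag libraries had 0 reads in rde-3, 1 in prg-1, 0 in the intronless library and 0 with restored introns. Base 371, 5 bases downstream, had 1, 864, 138 and 0 reads in the same libraries. The low count at base 366 in each library follows from how the site was selected. Both sites of a pair share most of the 22 bases copied.

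Of the 509 rarely used C, 261 had 0 reads, 128 had 1 and 120 had 2. Just outside the limit, 103 C had 3 reads and 88 had 4. The other C had a median of 17 reads and a highest value of 2824, at base 1159 in the 3′ flank of gfp::his-61. All rarely used C together held 368 reads, 0.526% of the total, and the other C held 69380. A count of 0 allows a share of up to 0.0391% of the 7673 reads on cdk-1::gfp, 0.0130% of 23153 on oma-1::3xflag, 0.0136% of 22100 on gfp::his-61 and 0.0176% of 17083 on oma-1::gfp. Such limits, like the intervals below, account for counting error alone, because amplified reads that carry no molecular identifier may repeat a molecule. The 509 sites held 431 different sequences, because gfp occurs in 3 reporters and oma-1 in 2.

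Rarely used C made up 148 of 405 C on cdk-1::gfp (36.5%), 77 of 462 on oma-1::3xflag (16.7%), 88 of 260 on gfp::his-61 (33.8%) and 196 of 607 on oma-1::gfp (32.3%). These counts depend on depth. Without its prg-1 library, oma-1::3xflag would have 205, and without its intronless library 122. Without the oma-1 deletion library, oma-1::gfp would have 442. No other single library moved the count of its reporter by more than 1.5 times.

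Within a reporter the rarely used C gathered in the parts with few reads. On gfp::his-61 they were 73 of the 100 C of his-61 (73.0%), where a C had 5.91 reads on average, and 5 of the 137 C of gfp (3.65%), where a C had 133 reads on average. On cdk-1::gfp they were 110 of 219 C in the cdk-1 part (50.2%, 7.63 reads per C) and 17 of 138 in gfp (12.3%, 40.9 reads per C). On oma-1::gfp they were 129 of 329 C in the oma-1 part (39.2%, 18.4 reads per C) and 19 of 139 in gfp (13.7%, 56.3 reads per C). The oma-1 part of oma-1::3xflag, at 52.8 reads per C, had 49 of 322 (15.2%). In each of the 3 gfp reporters the gfp part thus had more reads per C and a smaller share of rarely used C than the gene part. How far read density alone sets these shares was not tested. The 3′ flank of gfp::his-61 combined 135.6 reads per C with 10 rarely used C of 23 (43.5%), and base 1159 alone held 2824 of its 3118 reads. The 5′ flank of oma-1::3xflag had fewer reads per C than the oma-1 part, 35.3, and a smaller share of rarely used C, 7.69%.

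The 3′ flanks held 18 of 45 C on cdk-1::gfp (40%), 26 of 106 on oma-1::3xflag (24.5%) and 44 of 113 on oma-1::gfp (38.9%). All 3 C of the cdk-1::gfp 5′ flank had 0 reads, whereas the 5′ flanks of oma-1::3xflag and oma-1::gfp had 2 and 4 rarely used C of 26 each. None of the 8 C of the 3xflag tag was rarely used, and their median was 40.5 reads. The longest unbroken series of rarely used C lay in the worm gene parts. It ran over 14 C in his-61 (bases 900 to 945, 3 reads in all), 10 C in cdk-1 (741 to 767, 9 reads), 9 C in the oma-1 part of oma-1::gfp (764 to 780, 1 read) and 3 C in the oma-1 part of oma-1::3xflag (364 to 366, 3 reads).

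**Figure D1:**
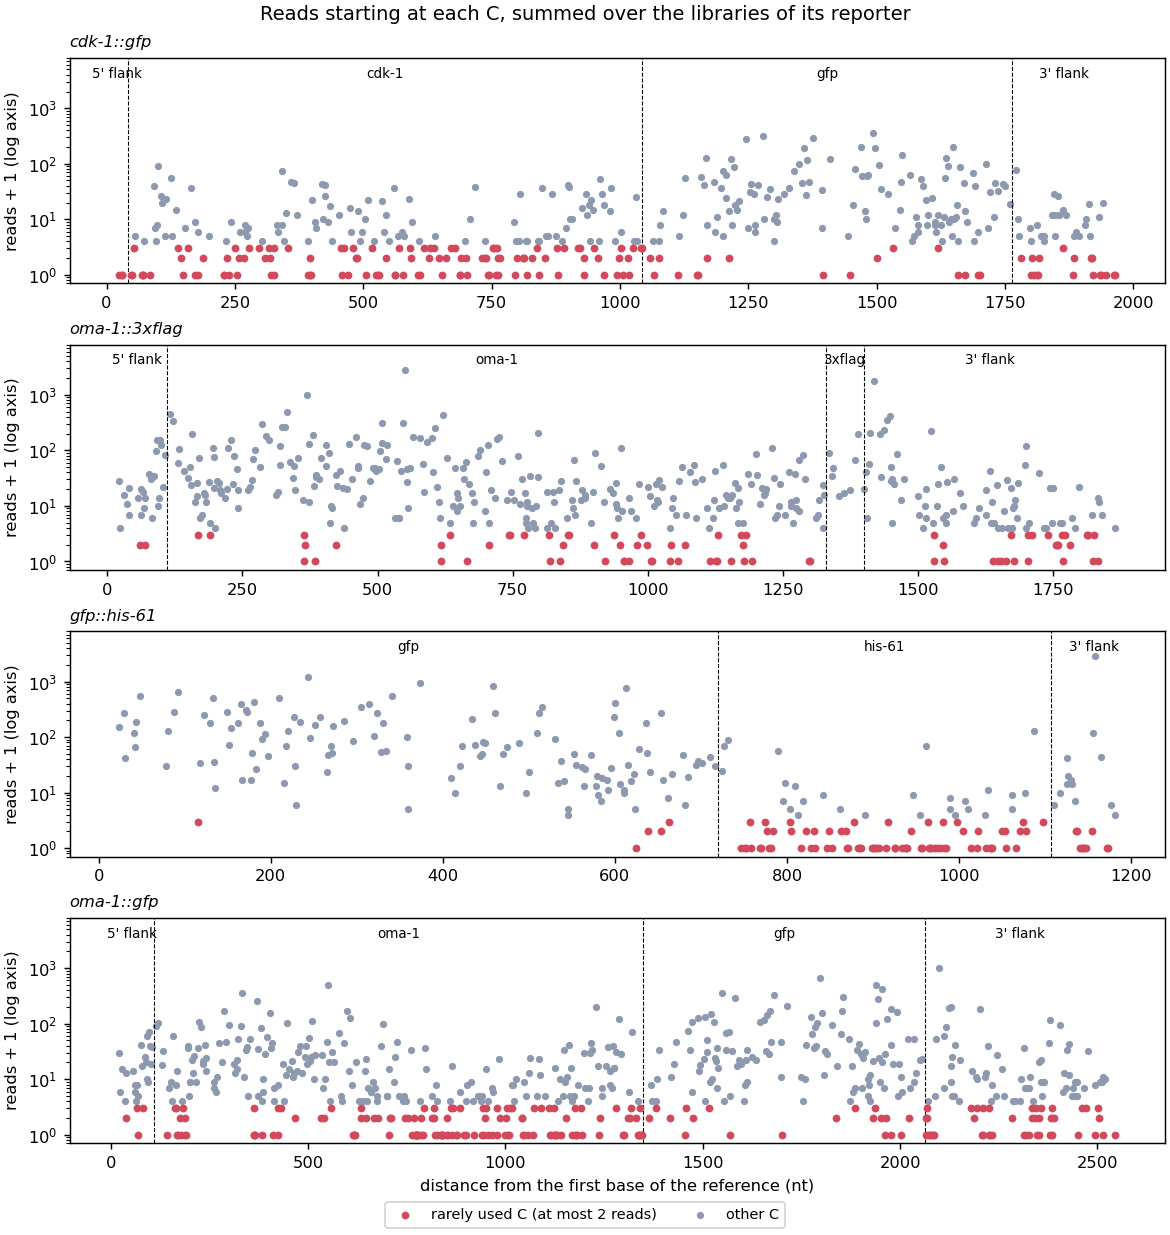
Reads that start at each C (vertical, reads + 1 on a log axis) against distance from the first base of the reference in nt, 1 panel per reporter. Red points are the 509 rarely used C with 0, 1 or 2 reads, grey points the other C, and dashed lines segment borders. Red points crowd in his-61 (73 of 100 C) and in the cdk-1 part (110 of 219), and are sparse in the gfp of gfp::his-61 (5 of 137).

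The base just before the C differed most between both kinds of site. A C or a G stood there at 339 of 509 rarely used C (66.6%) and at 382 of 1225 other C (31.2%). In single bases, the rarely used C followed a C in 35.4%, a G in 31.2%, a T in 20.6% and an A in 12.8% of cases, and the other C followed a C in 16.6%, a G in 14.6%, a T in 36.9% and an A in 31.9%. Read from the context, 47.0% of 721 C after a G or C were rarely used, against 16.8% of 1013 C after an A or T. Over all reporters 44.0% of rarely used C and 46.5% of other C followed a purine (A or G). The gap was wider on gfp::his-61, 39.8% against 54.1%, and over the gfp parts, 43.9% against 57.4%, while in the gene parts and the tag it ran the other way, 48.2% against 46.5%.

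The same direction held on each reporter. Of the C after a G or C, 57.1% were rarely used on cdk-1::gfp, 30.5% on oma-1::3xflag, 52.8% on gfp::his-61 and 51.7% on oma-1::gfp. Of the C after an A or T, the shares were 24.8%, 5.79%, 20.8% and 17.3% on the same reporters. It also held inside segments of very different read density. In his-61, with few reads, 44 of 48 C after a G or C were rarely used (91.7%), against 29 of 52 after an A or T (55.8%). In the gfp of the same reporter all 5 rarely used C followed a G or C, as did 42 of the 132 other C (31.8%). In the oma-1 part of oma-1::3xflag 43 of 49 rarely used C followed a G or C (87.8%), against 107 of 273 other C (39.2%). Of 13 segments that held both kinds of C, 12 had the higher share at the rarely used C. The exception was the 5′ flank of oma-1::gfp, with 1 of 4 rarely used C and 9 of 22 other C. The 13 segments, counted again below, are not 13 separate sequences. Both gfp and oma-1 with its flanks occur in more than 1 reporter and bring the same neighbouring bases each time.

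**Figure D2:**
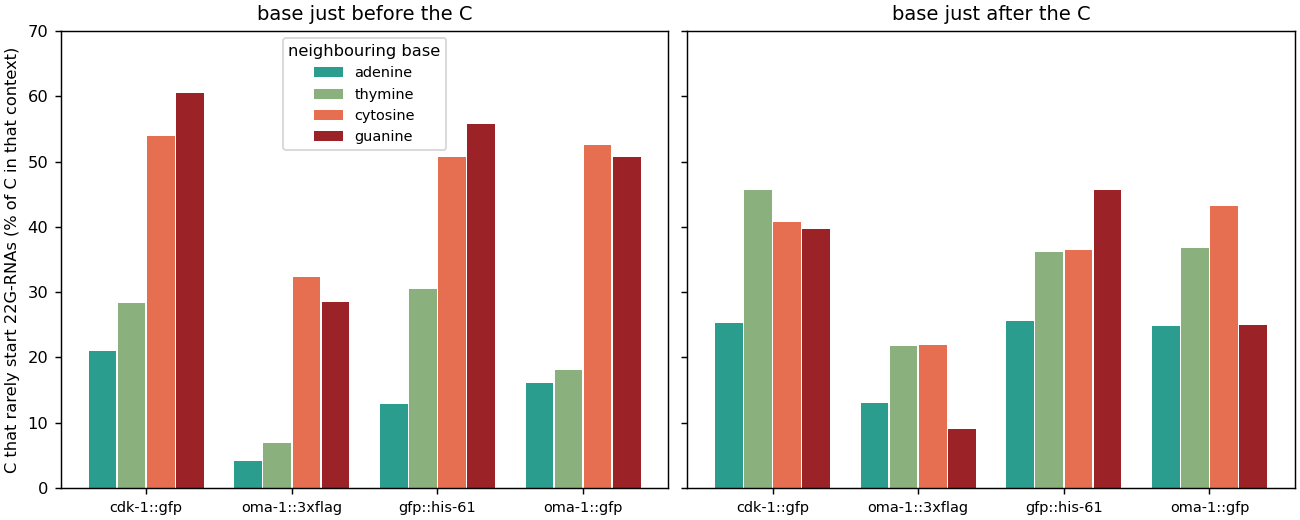
Share of C that are rarely used (vertical, % of the C in that context) by the base just before the C (left panel) and just after it (right panel), for the 4 reporters. In the left panel the cytosine and guanine bars, at 28.6% to 60.6%, stand above the adenine and thymine bars of the same reporter, at 4.08% to 30.4%.

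The base just after the C, which is not copied into the small RNA, differed less. A purine followed 40.5% of rarely used C and 54.4% of other C. An A followed 25% of rarely used C and 36.3% of other C, and a T 32.6% and 25.5%. The G after the C had no common direction: it stood at a smaller share of rarely used than of other C on oma-1::3xflag (10.4% against 21%) and oma-1::gfp (13.3% against 19%), and at a larger one on gfp::his-61 (18.2% against 11%) and cdk-1::gfp (19.6% against 17.1%). Of all contexts of 1 base on each side, written with the C in the middle, GCC had the highest share of rarely used C, 55 of 93 (59.1%), followed by CCT with 40 of 69 (58.0%) and GCT with 62 of 108 (57.4%). ACA had the lowest, 13 of 150 (8.67%), and a median of 38 reads against 1 read for GCC.

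Farther away the difference was smaller. G or C made up 66.6% at the base before rarely used C against 31.2% before other C, 51.1% against 36.5% at the second base before, and 50.1% against 41.3% at the third. At the first base after the C it was 42.4% against 38.2%. Over the whole 22 nt the GC content was 50.4% ± 10.5 at rarely used C (SD over 509 sites) and 44.3% ± 9.69 at other C (SD over 1225 sites). Over the first 20 of the 22 bases, which leave out the C and the base before it, it was 47.1% ± 11.3 and 42.2% ± 10.3. Overlapping windows share bases, so sites are not independent of each other.

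**Figure D3:**
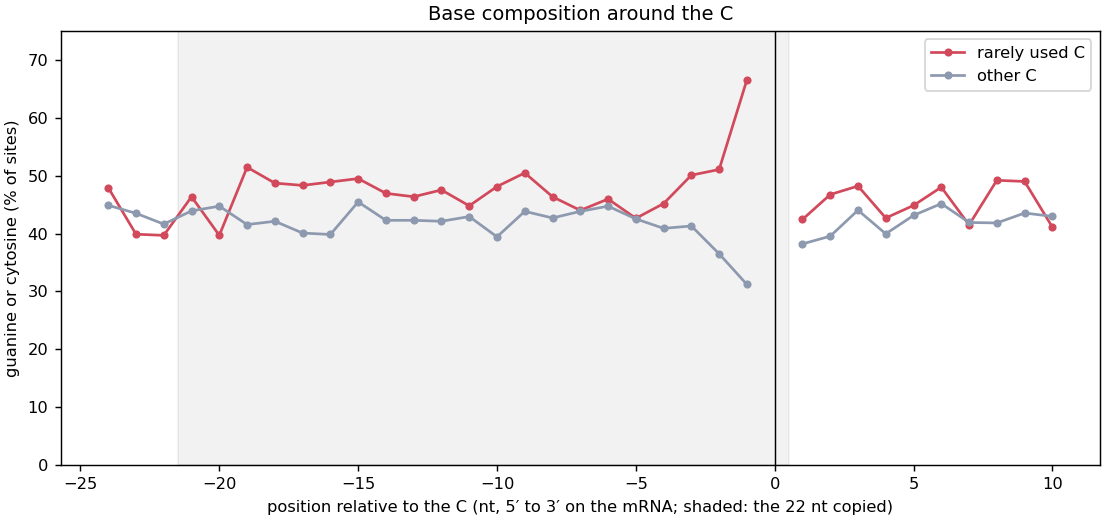
Share of sites with guanine or cytosine (vertical, %) at each position relative to the C (horizontal, nt, 5′ to 3′ on the messenger RNA, with the 22 copied bases shaded) for rarely used C in red and other C in grey. The lines lie farthest apart at the base just before the C, 66.6% against 31.2%.

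GC content and the base before the C moved together. In C pooled over the reporters, both were related to the share of rarely used C when the other was held, with segments not held. Where the 22 nt had 40% to under 50% GC, 35.7% of the 238 C after a G or C were rarely used, against 15.0% of 346 after an A or T. The lowest class ran against the trend in GC content, with 20.8% of 120 C rarely used under 30% GC and 8.13% of 246 at 30% to under 40%. At 50% to under 60% GC the shares were 53.7% of 339 and 22.9% of 340, and at 60% GC or more they were 67.9% of 81 and 50% of 24. The pooled relation was not seen in every class of each reporter. On gfp::his-61 at 60% GC or more the shares were 84.6% of 13 and 85.7% of 7. On cdk-1::gfp the shares after an A or T, by rising GC class, were 34.6%, 10.7%, 24.5%, 32.1% and, for 1 C, 0%. The difference in GC content depended on the reporter. It was 12.2 percentage points on gfp::his-61, where his-61 is rich in GC and poor in reads, 7.81 on oma-1::gfp, 4.76 on oma-1::3xflag and 2.63 on cdk-1::gfp. Differences were also taken inside each segment and averaged, with more weight for segments that held many C of both kinds. In this weighted average GC content was 5.62 percentage points higher at rarely used C, and the share with a G or C just before was 39.9 percentage points higher. The GC content of the first 20 bases was higher in 11 of 13 segments.

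Rarely used C stood closer to other C. Their mean distance to the nearest C was 1.95 ± 1.69 nt, against 2.60 ± 1.92 nt at other C (SD over the same sites), and it was shorter in 13 of 13 segments. A C directly beside another C was rarely used in 276 of 678 cases (40.7%), one with its nearest C 2 nt away in 25.4% of 429, and one 5 to 9 nt away in 16.4% of 159. These are pooled shares, and cdk-1::gfp did not follow the fall. There the share was 48.2% of 139 beside another C, 27.7% of 101 at 2 nt, 31.4% of 118 at 3 to 4 nt and 38.1% of 42 at 5 to 9 nt. On each other reporter it fell over these distances. By place within a run of C, a single C was rarely used in 22.1% of 1056 cases, the first C of a run in 32.5% of 295, an inner C in 46.6% of 88 and the last C in 47.1% of 295. The last C of a run follows a C by construction, so spacing and the base before the C are not separate measures.

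In runs of exactly 2 C, the first had more reads in 114 of 220 pairs, the second in 73, and the counts were equal in 33. Only the second was rarely used in 43 pairs and only the first in 23, while both were in 57 and neither in 97. The first C of these pairs held 5307 reads in all and the second 3459. The second had the smaller sum on each of the 4 reporters.

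Distance to the ends of the reference did not separate both kinds of site as a whole, with a mean of 536 nt to the nearer end at rarely used C and 504 nt at other C, and a median of 480 and 482 nt. It did vary by reporter. Within 100 nt of the first base, 10 of 16 C were rarely used on cdk-1::gfp and 0 of 11 on gfp::his-61. Within 100 nt of the last base the shares were 50% on cdk-1::gfp and oma-1::3xflag, 43.5% on gfp::his-61 and 44.4% on oma-1::gfp, each above the share of the whole reporter. In a predicted local fold the C was unpaired with a mean probability of 53.2% at rarely used C and 60.7% at other C. This is a prediction from sequence, its SD over sites was 30.9 and 28.7 percentage points, and it was lower at rarely used C in 9 of 13 segments.

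Because gfp stands in 3 reporters and oma-1 in 2, the same sequence could be followed in libraries that took no part in choosing it. Among 125 C whose 22 bases and next base were the same on oma-1::gfp as on cdk-1::gfp, 14.4% were rarely used on oma-1::gfp as background. Of the 16 rarely used on cdk-1::gfp, 11 were also rarely used there (68.8%), against 7 of the 109 others (6.42%). In the other direction, with a background of 12.8%, 11 of the 18 rarely used on oma-1::gfp were rarely used on cdk-1::gfp (61.1%), against 5 of 107 others (4.67%).

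On gfp::his-61, where gfp was read most densely, the background was 3.62% of 138 shared C. Of the 17 rarely used on cdk-1::gfp, 4 were also rarely used on gfp::his-61 (23.5%), against 1 of 121 others (0.826%), and these 17 had a median of 11 and up to 152 reads there, against a median of 65 at the others. Conversely, 4 of the 5 rarely used on gfp::his-61 were rarely used on cdk-1::gfp (80%, background 12.3%). On oma-1 and its flanks, 63 of the 77 rarely used C of oma-1::3xflag were rarely used on oma-1::gfp (81.8%, background 35.7% of 443 shared C), against 95 of 366 others (26.0%). In the other direction 63 of 158 were (39.9%, background 17.4%), against 14 of 285 others (4.91%). The 77 sites had a median of 0 and at most 8 reads on oma-1::gfp. Of these, 49 lay in the oma-1 part, and 45 of them were rarely used on oma-1::gfp (91.8%, background 37.7%), against 27.7% of 267 others. In the flanks it was 18 of 28 (64.3%, background 30.7%), against 21.2% of 99 others.

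**Figure D4:**
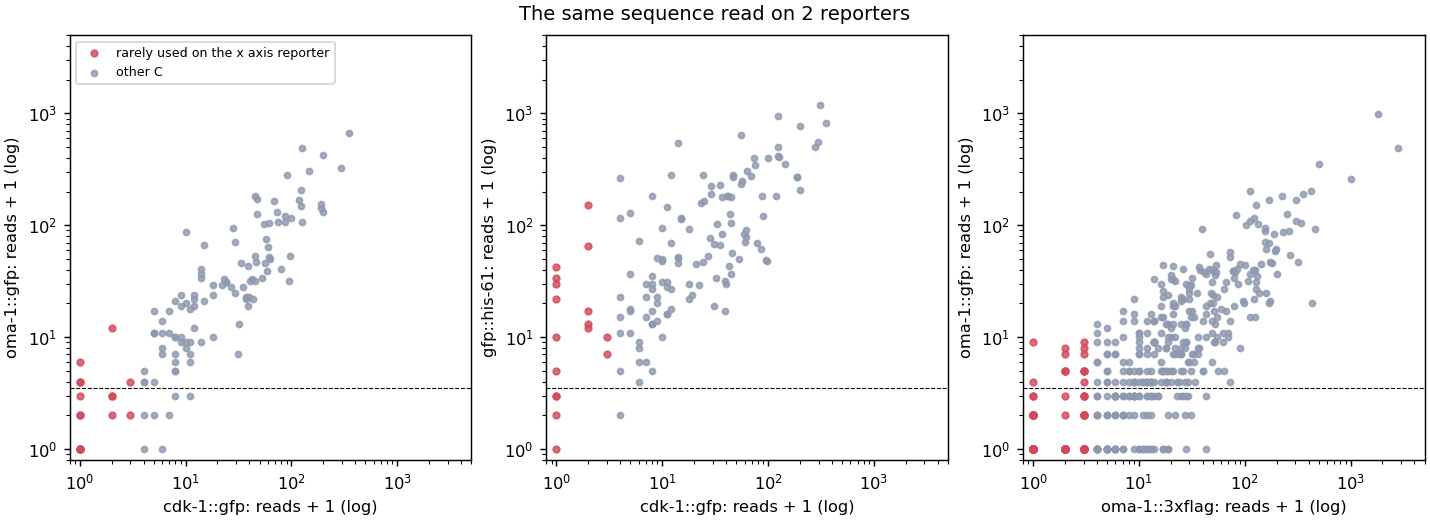
Reads + 1 (both axes log) of C with the same sequence on 2 reporters that share no library. Red points were rarely used on the reporter of the horizontal axis, grey points were not, and points under the dashed line had at most 2 reads on the reporter of the vertical axis. Of the red points, 11 of 16, 4 of 17 and 63 of 77 lie under the line, from left to right.

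There were 4 C of gfp rarely used on all 3 reporters, and all 4 followed a G or C, as did 28 of the 101 that were rarely used on none. Shown here are 3 of them, with the same capitals as above, to give the sequences that stayed low in 12 libraries.
gfp base 625 of gfp::his-61: tacctgtccacacaatctgcCCt
gfp base 639 of gfp::his-61: atctgccctttcgaaagatcCCa
gfp base 116 of gfp::his-61: gtggagagggtgaaggtgatGCa

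Base 625 had 0 reads in the 4 cdk-1::gfp libraries, 0 in the 6 gfp::his-61 libraries and 1 in the oma-1::gfp pair, while other C within 25 bases of it held 1952 reads on gfp::his-61. Base 639 had 0, 1 and 0 reads on these reporters, and base 116 had 0, 2 and 0. Of the C shared by exactly 2 reporters, 63 of 456 were rarely used on both, and 52 of these followed a G or C, as did 85 of the 283 rarely used on neither. A pair of these from oma-1, with 0 reads on both reporters, is shown for comparison.
oma-1 base 364: ttcgcgcgattcagagttttCCc
oma-1 base 385: cccagaacaaccaggttgcaCCt

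A second check left out 1 library at a time, chose the rarely used C on the remaining libraries of that reporter and looked at the library left out. In 45 of 45 combinations of library and segment with at least 5 C of each kind, the library left out had fewer reads per rarely used C than per other C. The nrde-4 library of gfp::his-61 had 0 reads on 5 such C of gfp and 21 reads per C on the other 132. The prg-1 library of the same reporter had 1.70 reads per C on 10 such C and 58.3 on the other 127. In the oma-1 part, the oma-1::3xflag prg-1 library had 8.41 reads per C on 155 such C and 77.4 on the other 167. The smallest gap was in the 3′ flank of oma-1::3xflag with restored introns, 0.207 against 0.234 reads per C, from 6 and 18 reads. No test was made of these differences. The 45 combinations are not separate, since each segment recurs for several libraries, and libraries of a reporter choose sites for each other. Some rest on few reads, such as 0 and 11 in the gfp part of the cdk-1::gfp rde-3 library.

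Among the libraries with any read at rarely used C, these C took 0.0316% (0.000799% to 0.176%) of the reads in gfp::his-61 wago-9 up to 5.46% (4.04% to 7.19%) in cdk-1::gfp rde-3, with exact 95% intervals. These reads are among those that chose the sites. Each site holds at most 2 reads over all libraries of its reporter, so the selection itself keeps the share of a deep library low. The intervals do not account for this, and the shares are a description only. The cdk-1::gfp library with introns had 4.46% (2.88% to 6.57%). The oma-1::3xflag rde-3 library had 0 of 161 reads, which allows a share of up to 1.86% by the limit of 3 counts used above and 2.27% by the exact interval. The cdk-1::gfp libraries in rde-3 and with introns had most of their reads in the sparsely read cdk-1 part, where most rarely used C of that reporter lie.

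The base before the C was related to reads in every library, with the caveat that these reads include those that chose the sites. C after a G or C were 36.3% to 43.9% of the C of a reporter. They took 7.90% (5.23% to 11.4%) of the reads at C in gfp::his-61 with introns and 24.7% (18.9% to 31.4%) in gfp::his-61 rde-3, with the other 14 libraries between these values. In 16 of 16 libraries the share of reads was below the share of C. Per site, the prg-1 library of gfp::his-61 had 78.4 reads per C after an A, 35.2 after a T, 12 after a C and 8.60 after a G. The oma-1::gfp library with oma-1 deleted had 30.2, 29.1, 6.29 and 7.47 in the same order, and the one with oma-1 present had 17.3, 9.48, 3.11 and 2.03.

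**Figure D5:**
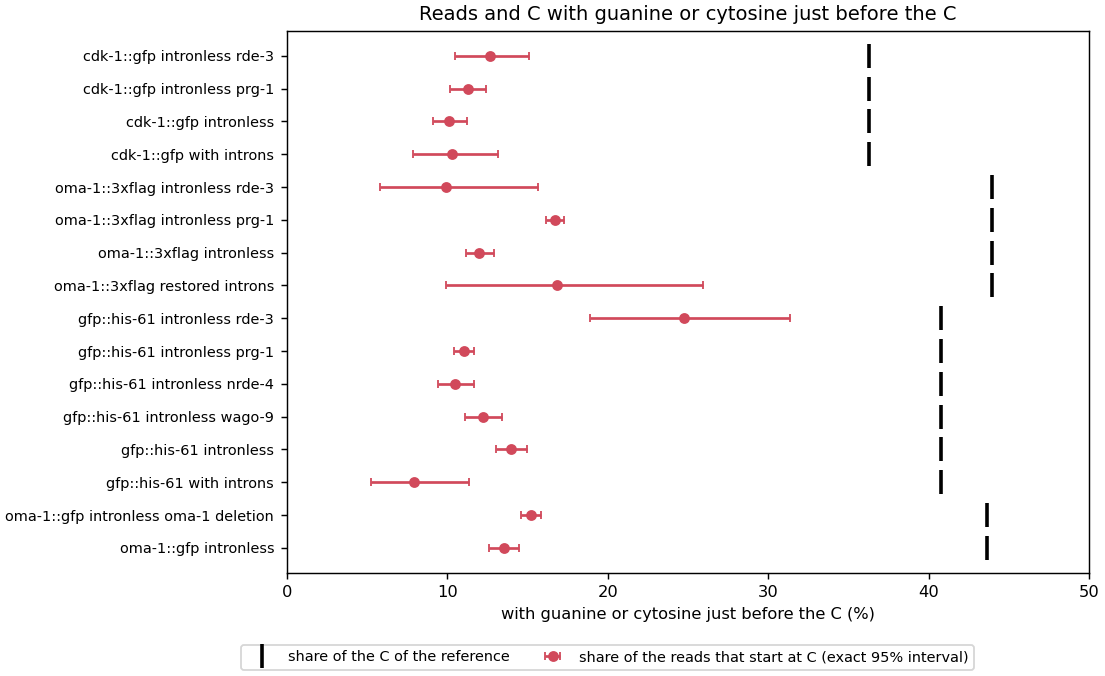
Share of reads at C that start after a guanine or cytosine (red points, %, bars are exact 95% intervals for counting error) and share of C in that context on the reference (black ticks, %), for the 16 libraries. In 16 of 16 libraries the point lies left of the tick, nearest in gfp::his-61 rde-3 at 24.7% against 40.8%.

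The relation went on among the C that were not rarely used. Their median was 31 reads after an A (391 C), 16 after a T (452 C), 12 after a G (179 C) and 9 after a C (203 C). Of the 20 C with the most reads, 1 followed a G or C on cdk-1::gfp, 1 on oma-1::3xflag, 3 on gfp::his-61 and 1 on oma-1::gfp. Base 551 of oma-1::3xflag, the highest site of that reporter with 2820 reads, followed a T, and base 1494 of cdk-1::gfp, with 350 reads, followed an A.

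Of the 368 reads at rarely used C, 47 differed from the reference at 1 base (12.8%), against 2175 of 69380 at other C (3.13%). Libraries differed in their share of mismatched reads and in how many of the 368 reads they gave. The share was lower at rarely used than at other C in cdk-1::gfp with introns (1 of 24 reads, 4.17%, against 7.83%) and in intronless oma-1::3xflag (0 of 28 reads against 1.98%). It was also lower in oma-1::3xflag with restored introns and in gfp::his-61 wago-9, which had 1 read each at rarely used C. In the other libraries with reads at rarely used C the share was higher there, for example 22.2% against 3.08% in intronless cdk-1::gfp. If only reads without mismatch were counted, 544 C would be rarely used.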

How the data were processed

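Small RNA libraries of 16 genotypes were analysed, 1 library each. Per the labels' protocols, 22G-RNA 5′ ends were treated with the polyphosphatase PIR-1 before adaptors were ligated. The tools named are cutadapt and Bowtie2 and the build is WBcel235, per the submitters' processing notes, with versions and settings not given in the sources used here. Per the file headers, the deposited counts are raw reads per distinct sequence and the position is that of the first G. The deposited RPM values (ppm) are these counts over 1 denominator per library and were not used. Every listed sequence was 22 nt, began with G and matched the antisense strand with at most 1 mismatch.

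Reads were summed per position over the libraries of a reporter, so deep libraries weigh most. Each C from base 22 on was scored, since a start before it has no full 22 nt. Pairing was predicted with RNAplfold 2.7.2 (window 80, span 40). Shares of reads have exact Clopper-Pearson 95% intervals. Segments end at the start codon, gfp or tag, and stop codon; the oma-1 part of oma-1::gfp includes a short linker. Named sites follow a rule: on each reporter the 3 rarely used C with the most reads on C within 5 bases, the longest series, the highest site, and sites rarely used on all reporters that share them. Several of the sites this rule names are not reported here. The highest C beside them, the contexts of 3 bases and the grouping of the base before into G or C were chosen after their values were seen. The members and lists were chosen with earlier results of these data known. With 1 library per genotype and overlapping sites, no p-value was computed. Of the measures, only the differences inside segments for a G or C before and a purine after the C were tested on simulated data. Python 3.11.15, numpy 2.4.6, pandas 2.3.3 and matplotlib 3.10.9 were used.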

Additional observations from a re-analysis of the deposited data

Results flagged for a closer look

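Reads also started, by their listed position, at bases other than C. There were 261 such reads, 0.373% of the total, in 15 of 16 libraries, and 100 of them lay directly beside a C. Each has its mismatch at the first base. They are part of the library and reporter totals above and of the shares taken of those totals. They enter no count of reads at C and were set apart because they lie outside the measurement at C. The gfp::his-61 prg-1 library had the most, 78 reads (0.758%), and the oma-1::3xflag rde-3 library had 0.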

How the results depend on the processing

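Differences are rarely used minus other C. The share with a G or C just before the C, 35.4 percentage points, stayed positive under 11 of 11 alternatives, all of them added after the data were seen for this measure. It was 28.8 without the deepest library of each reporter and 40.7 in gfp only. The purine after the C (-14.0 percentage points), the spacing, the GC content, the local fold and the share rarely used on another reporter (41.1 percentage points, 52.2% against 11.1%) kept their sign throughout. That last share pools both directions of every pair of reporters, so a shared sequence counts more than once. It also mixes backgrounds from 3.62% to 35.7%. Against the nearest other C of the same segment, GC content differed by 2.37 percentage points and spacing by -0.12 nt. The purine before the C differed by 3.36 percentage points in that comparison. The nearest other C is picked for lying close to a rarely used C, so short spacing and often overlapping copied bases follow from the choice. Its mean distance to the nearest C was 2.07 nt, against 2.60 nt for all other C. The small GC and spacing differences of that comparison therefore cannot show a dependence on processing. The purine before the C (-2.52) was at -7.79 without the deepest libraries and -13.5 in gfp only, and at 1.68 in the gene parts and the tag only. Distance to the nearer end (32.0 nt) was 122 nt in gfp only and -6.24 nt with each sequence counted once. It was also below 0 against the nearest other C (-0.435 nt), where the choice of a close C itself keeps the difference small. The local fold (-7.45 percentage points) was at -4.20 without the deepest libraries. The share rarely used on another reporter differed by 29.0 percentage points at 0 reads and 46.9 at up to 5 reads. The number of rarely used C was 261 at 0 reads, 923 without the deepest libraries, 41 in gfp only and 324 with each sequence counted once. A limit of 1% of the mean reads per C gave the same sites as 0 reads, by its construction. No paired analysis was possible because each genotype has 1 library. Depth limits the sparse parts most: a C of his-61 had 5.91 reads on average, close to the limit of 2 reads, and the part of depth in its share was not tested.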

Other observations

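Within the coding parts, the C at the second codon position was rarely used most often, in 166 of 480 cases (34.6%), against 133 of 466 at the first (28.5%) and 103 of 446 at the third (23.1%). A G or C stood just before 58.1%, 36.7% and 29.8% of the C at these positions. The order differed in gfp, where on oma-1::gfp the first position had 17.8% of 45, the second 12.5% of 40 and the third 11.1% of 54. There a G or C stood just before 35.6%, 45% and 24.1% of the C, so the second position had the most of these but not the most rarely used C.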
